A study of Homo sapiens with 6 samples.

Results

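A set of 10 genes, made up of the transcription factor SRF and genes of the actin cytoskeleton, was described in HepG2 cells with and without knockdown of ARHGEF2. They were SRF, ACTB, ACTG1, TAGLN, TAGLN2, TPM1, TPM4, CNN2, CNN3 and CALD1, taken from the table by gene symbol, and all 10 were found among the 27605 genes of the deposited table. HepG2 is a human liver cancer cell line. Poly(A) RNA was sequenced in 3 libraries of cells with a non-targeting control (shNC, genotype label WT) and in 3 libraries of cells infected with lentivirus expressing a short hairpin against ARHGEF2 (shARHGEF2), all of them grown in DMEM with serum and antibiotics. The study describes the knockdown as a stable line, the labels leave out how many hairpins were used, and nothing says that the libraries of a group came from separate cultures, so p-values measure only the spread between these libraries, which may be technical.

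ARHGEF2 encodes an exchange factor that loads the small GTPase RHOA with GTP. Active RHOA drives the assembly of actin filaments through formins and the kinase ROCK. Free actin monomers hold the MRTF coactivators away from SRF, and filament assembly uses up monomers and lets MRTF enter the nucleus, where it joins SRF on a short promoter element, the CArG box. Actins and actin-binding proteins are among the known targets, so their mRNA is often read as an output of RHOA. The comparison of the 2 groups asks whether the mRNA of these genes differed once ARHGEF2 was reduced.

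The CArG box was first located in the promoters, because it is the element on which SRF acts. RefSeq promoter windows on GRCh38.p14, each with 250 bases before and 50 bases after an annotated start, were matched by symbol for 8 of the 10 genes, with ACTB and TAGLN unmatched. The box was read as 2 C, 6 A or T and 2 G, which is its own reverse complement in form, so 1 search covered both strands, and no other motif was searched. At least 1 box lay in 4 of the 8 genes (50.0%), against 1.60% of the 27305 genes with a window and 1.29% of the 35116 windows. The set holds SRF and known SRF targets, and the share was not particular to it. Among genes with a window, a box lay in 10 of 27 other cytoskeletal targets of MRTF and SRF. It lay in 3 of 9 paralogs of the 10 genes and in 2 of 8 immediate early genes. For genes of actin monomer and filament turnover the count was 0 of 27. A match is a description of the letters and not of binding. The 4 windows with a box are shown from 5′ to 3′ on the strand of the gene, with the box in capitals, since they hold the element itself. The SRF window is chr6:43171019-43171318 on the plus strand, the ACTG1 window chr17:81512750-81513049 on the minus strand, the CNN2 window chr19:1026358-1026657 on the plus strand, and the TPM4 window chr19:16067288-16067587 on the plus strand.
SRF: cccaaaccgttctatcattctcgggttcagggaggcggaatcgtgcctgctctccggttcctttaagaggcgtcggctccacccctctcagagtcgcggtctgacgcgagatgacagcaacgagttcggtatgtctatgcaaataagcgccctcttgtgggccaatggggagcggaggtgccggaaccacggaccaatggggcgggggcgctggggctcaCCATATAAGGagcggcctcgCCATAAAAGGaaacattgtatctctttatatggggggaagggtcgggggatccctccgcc
ACTG1: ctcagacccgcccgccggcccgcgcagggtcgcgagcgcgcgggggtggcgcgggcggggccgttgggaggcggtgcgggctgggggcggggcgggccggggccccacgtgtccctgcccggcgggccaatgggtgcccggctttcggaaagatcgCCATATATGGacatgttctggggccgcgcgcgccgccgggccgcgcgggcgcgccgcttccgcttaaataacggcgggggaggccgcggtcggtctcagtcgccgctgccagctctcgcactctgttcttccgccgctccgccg
CNN2: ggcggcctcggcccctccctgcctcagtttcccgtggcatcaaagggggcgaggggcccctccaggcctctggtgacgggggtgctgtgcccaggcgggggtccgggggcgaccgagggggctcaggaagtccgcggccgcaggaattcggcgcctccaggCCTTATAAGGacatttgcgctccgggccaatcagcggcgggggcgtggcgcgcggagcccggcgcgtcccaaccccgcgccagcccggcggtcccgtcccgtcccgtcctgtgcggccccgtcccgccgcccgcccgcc
TPM4: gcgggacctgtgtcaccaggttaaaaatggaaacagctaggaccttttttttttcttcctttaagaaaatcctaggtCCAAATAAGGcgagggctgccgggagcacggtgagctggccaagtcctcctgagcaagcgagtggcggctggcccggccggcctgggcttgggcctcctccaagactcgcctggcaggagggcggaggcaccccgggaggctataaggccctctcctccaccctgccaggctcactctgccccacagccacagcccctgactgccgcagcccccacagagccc

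SRF carried 2 boxes, whose first bases lay 30 and 10 bases before the start site. The ACTG1 box began 94 bases before the start and the CNN2 box 89 bases before it. The TPM4 box began 173 bases before the first of 3 annotated starts, and the windows of the other two starts held none. No box was found in the windows of TAGLN2, TPM1, CNN3 or CALD1, which says only that these letters are not in the windows searched.

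**Figure D1:**
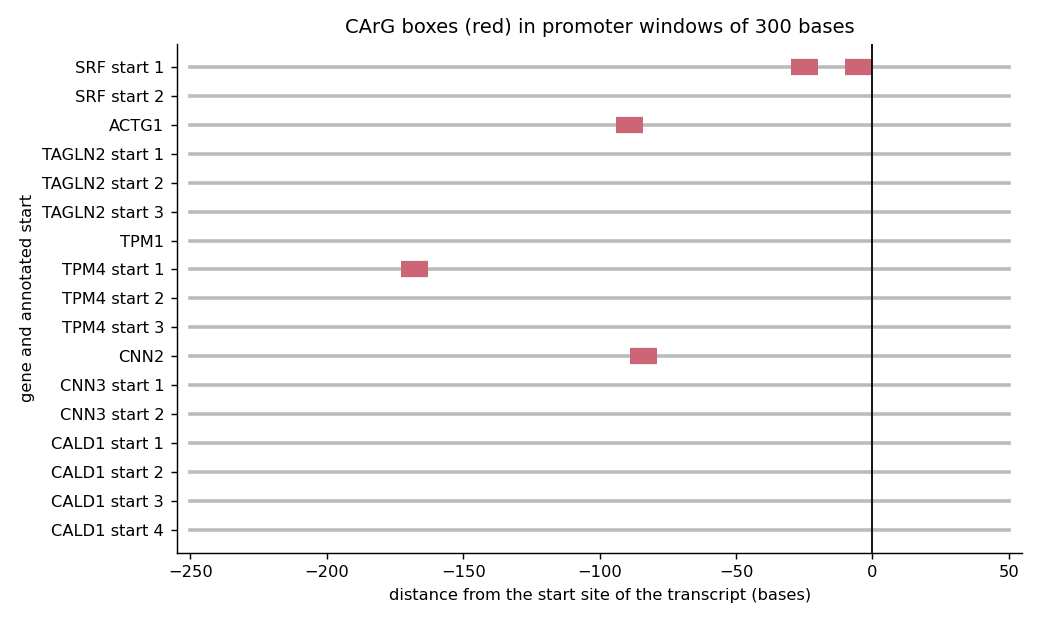
Position of CArG boxes (red) in the 17 promoter windows of the 8 matched genes; the horizontal axis is the distance from the annotated start in bases and each grey line is a window from 250 bases before to 50 bases after it. Boxes are seen in 4 windows, with the SRF pair nearest to a start.

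The deposited values are FPKM, fragments scaled to transcript length and to the mapped fragments of the library. The table holds no counts, so no counting interval is given. The spacing of low values placed the depth of the libraries between 0.859 and 1 times that of the deepest, but 46.5% to 48.7% of these values lay within 0.1 of a whole number of fragments, against 20% by chance, so counts were not recovered. Groups were compared with limma on log2(FPKM + 1) over the 12291 genes whose mean in the 6 libraries reached 0.5 FPKM, and a gene was called at a Benjamini-Hochberg adjusted p under 0.05. Libraries of the same group were also unequal in GC content, in that the deviations of a library from its group mean had a rank correlation with GC of between -0.53 and 0.61 across genes, which are not independent replicates. As a check of the cell type, 8 of 14 hepatocyte markers were in the table and 1 of them, VTN, passed the filter, while AFP, APOA1, SERPINA1 and HNF4A did not exceed 0.0703, 0.248, 0.0103 and 0.0956 FPKM in any library. The other 6 markers were not analysed here. These values go against the hepatocyte origin that the name HepG2 implies, and the name is used here as the labels give it. The 8 hepatocyte markers summed to between 5.92 and 6.24 FPKM in shNC and to between 6.70 and 7.62 FPKM in shARHGEF2, nearly all of it VTN (means of 5.52 and 6.38 FPKM), while APOA1 had a mean of 0.138 FPKM in shNC and was at 0 in the shARHGEF2 libraries. The epithelial keratins KRT8, KRT18 and KRT19 were abundant, with EPCAM and CDH1 near 0, and the 5 epithelial markers summed to between 354 and 458 FPKM in shNC and to between 335 and 419 FPKM in shARHGEF2. The 10 markers of smooth muscle and fibroblasts summed to 46.2 to 61.4 FPKM in shNC and to 47.1 to 53.4 FPKM in shARHGEF2. Of these, LUM had means of 32.7 and 27.1 FPKM. The filter was passed by 7 of the 10. Among them, COL1A1, ACTA2, COL3A1, DCN and DES had means of 7.52, 5.24, 4.61, 2.12 and 1.93 FPKM over the 6 libraries. The defining smooth muscle genes MYH11 and CNN1 did not exceed 0.204 and 0.260 FPKM. The 3 endothelial markers summed to between 0.561 and 0.640 FPKM and to between 0.775 and 0.866 FPKM. The part of other cells in the results was not tested, and in such bulk RNA fewer cells of a type and less RNA per cell cannot be told apart.

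ARHGEF2 itself (ENSG00000116584) had 13.0, 14.4 and 13.9 FPKM in the shNC libraries and 4.25, 4.0 and 4.82 FPKM in the shARHGEF2 libraries. The knockdown groups were apart, and the gene fell by 1.47 on the log2(FPKM + 1) scale (95% interval -1.71 to -1.22, adjusted p = 0.00244 in limma). It was not called with no filter on low values (adjusted p = 0.0701 in limma) or with the replicate block (adjusted p = 0.0716 in limma), at the same log2 fold change. RHOA, the GTPase it activates, had means of 215 ± 6.15 and 209 ± 3.68 FPKM (SD, n = 3 each) in shNC and shARHGEF2, with a log2 fold change of -0.04 (95% interval -0.21 to 0.13).

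None of the 10 genes was called in limma at an adjusted p under 0.05, where 0.277% of all genes tested were called, 0.195% higher and 0.0814% lower in shARHGEF2. All 10 passed the filter on low values. The lowest adjusted p in limma was 0.246, for ACTB. At an unadjusted p under 0.05, 2 of the 10 genes, ACTB and TAGLN, passed, both lower in shARHGEF2, beside 5.55% of all genes tested that passed on the lower side and 8.1% on the higher side. In 4 of the 10 genes, SRF, ACTB, TAGLN and TPM1, the highest shARHGEF2 value was under the lowest shNC value. The opposite held for 0 of the 10, and the groups overlapped in the other 6. Over all genes tested the groups did not overlap in 9.17% on the lower side and in 11.3% on the higher side. The median log2 fold change of the 10 genes was -0.048, beside -0.0016 over all genes tested, with 6 genes fitted lower and 4 fitted higher. The 95% intervals of all 10 lay between -0.66 and 0.46 on the log2(FPKM + 1) scale. Each of them left out a 2-fold change in either direction on that scale. The pseudocount pulls low genes towards 0, and the TAGLN interval did not leave out a 2-fold fall in FPKM itself.

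**Figure D2:**
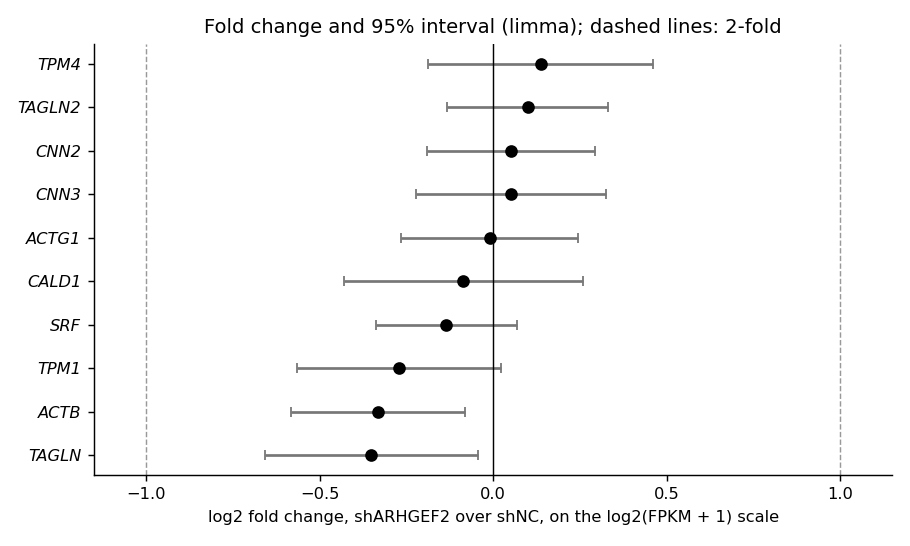
Log2 fold change of the 10 genes, shARHGEF2 over shNC, on the log2(FPKM + 1) scale, with the 95% interval from limma (bars). Dashed lines mark a 2-fold change on that scale. The intervals of ACTB and TAGLN lie below 0, those of the other 8 genes include 0, and none reaches a dashed line. The TAGLN interval does not leave out a 2-fold fall in FPKM itself, since the pseudocount pulls low genes towards 0.

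SRF (ENSG00000112658, chr6:43171299-43181507 on GRCh38, GENCODE 29) is the transcription factor of the set and, with boxes in its own promoter, also a known target of itself. It had 25.5, 23.5 and 26.1 FPKM in the shNC libraries. In the shARHGEF2 libraries it had 23.2, 23.0 and 21.9 FPKM. The groups did not overlap, but the distance between the lowest shNC and the highest shARHGEF2 library was small. SRF was the gene with the least spread of the 10, with a coefficient of variation of 5.51% in shNC and 3.07% in shARHGEF2. Its log2 fold change was -0.13 (95% interval -0.34 to 0.07, adjusted p = 0.564 in limma), and in a two-sided exact permutation test p was 0.1, the smallest that 3 libraries against 3 allow.

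The cytoplasmic actins form the filaments themselves. ACTB (ENSG00000075624, chr7:5527147-5563784) encodes β-actin, a common loading reference. It had 1030.3, 918 and 851 FPKM in shNC. In shARHGEF2 it had 800.3, 651 and 775 FPKM. All shARHGEF2 libraries were below all shNC libraries, and the mean was 20.5% lower. The log2 fold change of ACTB was -0.33 (95% interval -0.58 to -0.08, adjusted p = 0.246 in limma), the 758th gene by p. Over 15 alternative settings its log2 fold change stayed between -0.40 and -0.24 and its adjusted p in limma between 0.140 and 0.559.

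ACTG1 (ENSG00000184009, chr17:81509971-81523847) encodes γ-actin, which is nearly the same protein. It had 961, 979 and 819 FPKM in shNC. It had 821, 892 and 1029.9 FPKM in shARHGEF2. The highest and the lowest of the 6 values stood in different groups, and the groups overlapped throughout. The log2 fold change was -0.01 (95% interval -0.26 to 0.24, adjusted p = 0.985 in limma), and after quantile normalization its sign turned (0.14, adjusted p = 0.551 in limma).

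Since the actin pair is measured in the same libraries, its ratio does not depend on the scaling between them. ACTB was 51.7%, 48.4% and 51.0% of the summed FPKM of the 2 genes in shNC and 49.3%, 42.2% and 42.9% in shARHGEF2. Replicates 2 and 3 of shARHGEF2 were lowest, while replicate 1 lay within the range of shNC, so the groups overlapped. The sum of both genes lay between 1671 and 1992 FPKM in shNC and between 1544 and 1805 FPKM in shARHGEF2. This ratio was chosen after its values were seen, and it was not tested. ACTB and ACTG1 made up between 99.4% and 99.6% of the FPKM of the 7 actin genes examined. Both genes have near-identical copies, and how reads shared with them were assigned is not given in the sources used here. The most abundant copy, the pseudogene ACTBP2, had between 2.11 and 2.83 FPKM in shNC and between 1.28 and 1.81 FPKM in shARHGEF2, groups that did not overlap either. The 8 ACTG1 pseudogenes summed to at most 0.690 FPKM and the 9 POTE genes to at most 0.199 FPKM in a library.

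**Figure D3:**
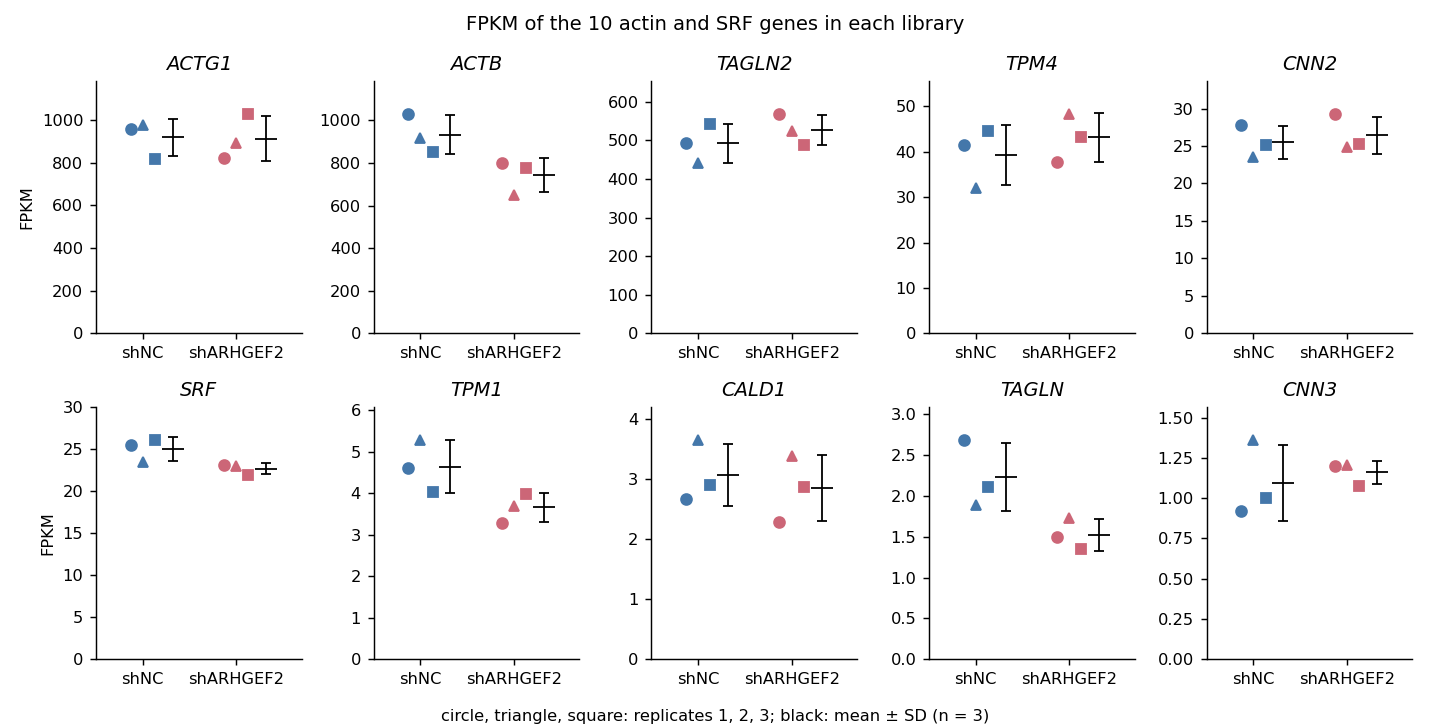
FPKM of the 10 genes in each library, ordered by mean level; circles, triangles and squares are replicates 1, 2 and 3 of shNC (blue) and shARHGEF2 (red), black bars are the mean ± SD (n = 3), and each axis starts at 0. The groups are apart in ACTB, SRF, TPM1 and TAGLN, and overlap in the other 6 genes.

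Tropomyosins lie along actin filaments and set which proteins can bind them. TPM1 (ENSG00000140416, chr15:63042632-63071915) had 4.6, 5.28 and 4.02 FPKM in shNC. It had 3.29, 3.69 and 3.99 FPKM in shARHGEF2. The groups did not overlap, but shNC replicate 3 and shARHGEF2 replicate 3 were nearly equal. The log2 fold change was -0.27 (95% interval -0.57 to 0.02, adjusted p = 0.402 in limma). An antisense transcript, TPM1-AS, ranged from 0 to 1.33 FPKM, and whether counting used the strand is not given in the sources used here.

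TPM4 (ENSG00000167460, chr19:16067021-16103005), which has a CArG box before its first start, had 41.5, 31.9 and 44.6 FPKM in shNC. It had 37.7, 48.3 and 43.3 FPKM in shARHGEF2. Replicate 2 was the lowest library of shNC and the highest of shARHGEF2, and the groups overlapped. The log2 fold change was 0.14 (95% interval -0.19 to 0.46, adjusted p = 0.739 in limma). Without shNC replicate 2 it was -0.0031, so the sign rested on that library. Of the 4 tropomyosin genes together, TPM4 made up 20.1% ± 2.55 in shNC and 23.0% ± 2.83 in shARHGEF2 (SD, n = 3 each). TPM1 made up 2.39% ± 0.476 and 1.96% ± 0.271 (SD, n = 3 each), and most of the rest was TPM2, at 70.9% ± 1.3 and 68.7% ± 3.54 (SD, n = 3 each).

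Transgelins and calponins are related small proteins that bind along filaments. TAGLN (ENSG00000149591, chr11:117199321-117204782) encodes SM22α, a marker of smooth muscle and a widely used SRF target. It had 2.69, 1.89 and 2.12 FPKM in shNC. It had 1.5, 1.73 and 1.34 FPKM in shARHGEF2. The groups did not overlap, and the highest value, shNC replicate 1, stood well above the others. Its log2 fold change was the most negative of the 10 genes, at -0.35 (95% interval -0.66 to -0.04, adjusted p = 0.307 in limma). The pseudocount of 1 pulls low genes towards 0, and with 0.1 the log2 fold change was -0.51. Without shNC replicate 1 it was -0.25, and over the 15 alternatives its adjusted p in limma stayed between 0.162 and 0.604.

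TAGLN2 (ENSG00000158710, chr1:159918107-159925732), the form of non-muscle cells, was far more abundant. It had 494, 441 and 542 FPKM in shNC. It had 568, 523 and 489 FPKM in shARHGEF2. The groups overlapped, and the log2 fold change was 0.10 (95% interval -0.13 to 0.33, adjusted p = 0.733 in limma). The TAGLN level, per length, was 0.454% ± 0.0802 of that of TAGLN2 in shNC and 0.290% ± 0.0360 in shARHGEF2 (SD, n = 3 each).

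CNN2 (ENSG00000064666, chr19:1026581-1039068), a calponin of non-muscle cells with a CArG box in its promoter, had 27.8, 23.5 and 25.1 FPKM in shNC. It had 29.3, 24.8 and 25.2 FPKM in shARHGEF2. Replicate 1 was the highest library of both groups, and the groups overlapped (log2 fold change 0.05, 95% interval -0.19 to 0.29, adjusted p = 0.887 in limma). CNN3 (ENSG00000117519, chr1:94896949-94927278), the acidic calponin, was the lowest of the 10 genes. It had 0.917, 1.36 and 1.00 FPKM in shNC and 1.20, 1.21 and 1.08 FPKM in shARHGEF2. Its shARHGEF2 values lay inside the range of shNC (log2 fold change 0.05, 95% interval -0.22 to 0.32, adjusted p = 0.904 in limma).

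CALD1 (ENSG00000122786, chr7:134744252-134970728) encodes caldesmon, which holds myosin back from actin. It had 2.67, 3.66 and 2.91 FPKM in shNC. It had 2.29, 3.39 and 2.87 FPKM in shARHGEF2. Replicate 2 was the highest library in both groups and replicate 1 the lowest, so libraries of 1 group differed more than the groups. The log2 fold change was -0.09 (95% interval -0.43 to 0.26, adjusted p = 0.863 in limma).

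By mean FPKM over the 6 libraries, which is per length, the genes ran from ACTG1 (917), ACTB (838) and TAGLN2 (510) through TPM4 (41.2), CNN2 (26.0) and SRF (23.9) to TPM1 (4.14), CALD1 (2.96), TAGLN (1.88) and CNN3 (1.13). The ranges of ACTG1 and ACTB overlapped, as did those of CNN2 and SRF, of TPM1 and CALD1, of CALD1 and TAGLN, and of TAGLN and CNN3. The other neighbours in this order were apart in all libraries. The 10 genes summed to between 2173 and 2592 FPKM in a library, of which the actin pair was between 70.9% and 78.1%.

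The 10 genes did not share 1 pattern over the libraries. Centred on each gene's mean log2(FPKM + 1), ACTB and TAGLN were highest in shNC replicate 1, TPM1, CALD1 and CNN3 in shNC replicate 2, and SRF in shNC replicate 3. TPM4 was lowest in shNC replicate 2, and so were TAGLN2 and CNN2. The mean centred value of the 10 genes was 0.08, 0.03 and 0.02 in shNC and -0.07, -0.02 and -0.04 in shARHGEF2. Distance from this mean profile was taken as the root mean square difference over the 6 libraries. The genes nearest to it were AIFM2 (0.0089), BCAS4 (0.020), GTF3C2 (0.024), TUBGCP2 (0.025) and COPS6 (0.026). The 10 genes themselves lay farther from it, from 0.060 (SRF) to 0.198 (TPM4). A mean over unlike profiles is flat, so steady genes lie near it and its single members tend to lie farther away. These distances are therefore no measure of a shared pattern.

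**Figure D4:**
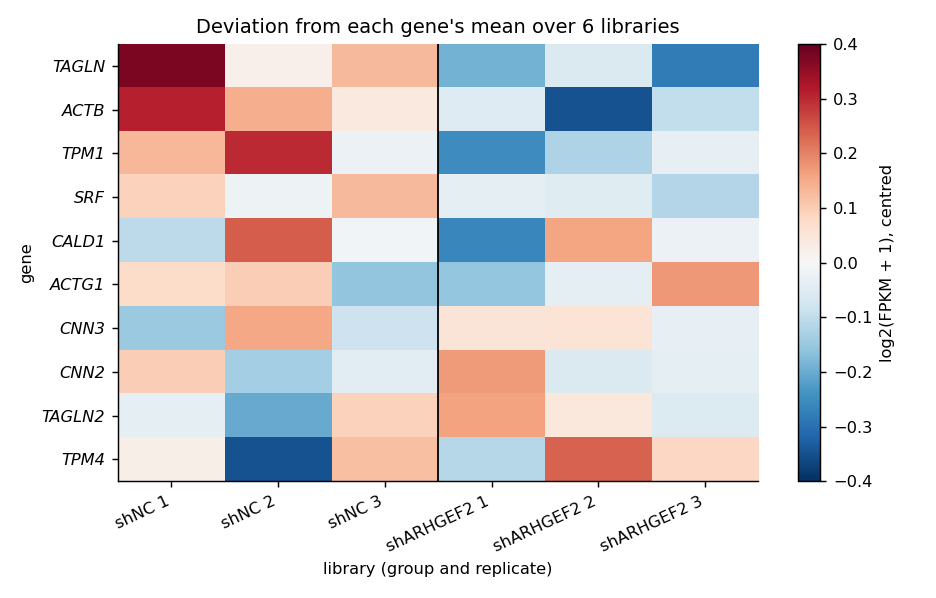
Deviation of each of the 10 genes (rows, ordered by log2 fold change) from its own mean over the 6 libraries (columns) on the log2(FPKM + 1) scale; red is above and blue below the mean. The upper 4 genes are red or near 0 in shNC and blue in shARHGEF2, and shNC replicate 2 is the bluest column for TPM4, TAGLN2 and CNN2.

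Among the genes with a window, presence of a CArG box did not separate them by their difference. ACTB and TAGLN had no window and were left out, at log2 fold changes of -0.33 and -0.35. These were the most negative of the 10 genes, so the comparison does not cover them. The 4 genes with a box had log2 fold changes from -0.13 (SRF) to 0.14 (TPM4), with a median of 0.020. The 4 genes with a window and no box ran from -0.27 (TPM1) to 0.10 (TAGLN2), with a median of -0.017. Over the whole table, 136 tested genes had a box in a window. Their median log2 fold change was 0.0060, beside -0.0018 over the 8515 tested genes with a window and no box. Of the 136, 1 was called, on the lower side. Of the 8515, 15 were called higher and 4 lower, and 0.277% of all genes tested were called. A count of 1 is too small to set these shares apart. The called gene was EHD1, an endocytic recycling protein, which fell from 12.7 ± 1.39 to 6.15 ± 0.310 FPKM (SD, n = 3 each). Its fall was 0.94 on the log2(FPKM + 1) scale (adjusted p = 0.0284 in limma). EHD1 was named after its value was seen, and it was not called in 8 of the 15 alternatives, whose adjusted p in limma ranged from 0.0108 to 0.232 over all 15. The call was lost with the replicate block (0.124), with no filter (0.232), with median-of-ratios scaling (0.0537), without trended and robust variances (0.0551), and without shNC replicate 1 (0.0905) or shARHGEF2 replicate 1 (0.0536), 2 (0.0653) or 3 (0.0876), each an adjusted p in limma.

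The coactivators that join SRF were read from the same table. MRTFA, the main one, had 10.2, 10.9 and 10.6 FPKM in shNC and 11.7, 9.95 and 10.5 FPKM in shARHGEF2, so the groups overlapped (log2 fold change 0.018, 95% interval -0.21 to 0.25, adjusted p = 0.969 in limma). MRTFB and MYOCD were under the filter, at means of 0.322 and 0.0908 FPKM.

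Of the 9 paralogs of the 10 genes, 4 were tested and 0 were called in limma, with a median log2 fold change of 0.056. Only 1 had an unadjusted p under 0.05, on the higher side, beside 8.1% of all genes tested. Groups were apart on the higher side in 2 of the 4, beside 11.3% of all genes tested. ACTC1, cardiac actin, had 2.59, 2.08 and 2.08 FPKM in shNC and 3.97, 3.08 and 3.23 FPKM in shARHGEF2. All shARHGEF2 libraries were above shNC, the opposite side from ACTB (log2 fold change 0.44, 95% interval 0.14 to 0.74, adjusted p = 0.199 in limma). ACTA2, smooth muscle actin, was also apart on the higher side, at 4.77 ± 0.474 and 5.70 ± 0.400 FPKM (SD, n = 3 each; log2 fold change 0.22, adjusted p = 0.459 in limma). TPM2 and TPM3 had log2 fold changes of -0.10 each, with overlapping groups.

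Among 30 other cytoskeletal targets of MRTF and SRF, 27 were tested and 0 were called in limma. An unadjusted p under 0.05 was reached by 2, both lower, beside 5.55% of all genes tested on that side. Their median log2 fold change was 0.021, with 16 fitted higher and 11 fitted lower. The groups of tested genes did not overlap in 2 cases on each side (7.41% each). Over all genes tested this share was 9.17% on the lower and 11.3% on the higher side. The 2 higher genes were FHL2 and GSN, with log2 fold changes of 0.18 and 0.13, and the 2 lower genes were MYH9 and CCN1. MYH9, the heavy chain of non-muscle myosin II, had 85.1, 99.3 and 97.9 FPKM in shNC and 81.9, 76.0 and 78.8 FPKM in shARHGEF2 (log2 fold change -0.25, 95% interval -0.46 to -0.04, adjusted p = 0.280 in limma). CCN1, a secreted matrix protein that also answers to YAP, had 68.6, 71.3 and 95.2 FPKM in shNC and 60.5, 59.8 and 59.6 FPKM in shARHGEF2 (log2 fold change -0.37, adjusted p = 0.257 in limma). The shARHGEF2 values of CCN1 lay close together, and shNC replicate 3 stood far above the other libraries. The most abundant genes of the list, FLNA, ITGA5 and ACTN4, had log2 fold changes of -0.07, 0.14 and 0.05, each with overlapping groups.

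SRF also drives immediate early genes, in large part through the ternary complex factors. Of the listed genes with a promoter window, 2 of 8 held a CArG box. Which factors drive these genes here was not tested. Of 14 such genes 11 were tested and 0 were called in limma. Of the 11, 5 had an unadjusted p under 0.05, all of them higher, beside 8.1% of all genes tested on that side. The median log2 fold change was 0.34, with 9 fitted higher and 2 fitted lower. It was -0.048 for the 10 genes described here and -0.0016 over all genes tested. The 10 genes and this list were chosen with earlier results of these data known. Their medians are therefore a description, and the difference between them was not tested. Over all genes tested the groups did not overlap in 11.3% on the higher side and in 9.17% on the lower side. In this list that held for 3 tested genes on the higher side and 1 on the lower, EGR1, a zinc finger transcription factor. It had 3.49, 4.07 and 3.75 FPKM in shNC and 3.36, 1.84 and 3.15 FPKM in shARHGEF2 (log2 fold change -0.36, 95% interval -0.75 to 0.03, adjusted p = 0.408 in limma). IER3, an early stress response gene, had 381, 340.3 and 517 FPKM in shNC and 668, 705 and 659 FPKM in shARHGEF2. NR4A1, an orphan nuclear receptor, had 16.8, 16.6 and 34.2 FPKM in shNC and 41.3, 39.8 and 36.8 FPKM in shARHGEF2. In both genes shNC replicate 3 was the shNC library nearest to the shARHGEF2 values. Their log2 fold changes were 0.73 (adjusted p = 0.105 in limma) and 0.86 (adjusted p = 0.247 in limma). Without shNC replicate 3, 3 genes of the list were called, IER3 (0.91, adjusted p = 0.0171 in limma), NR4A1 (1.19, adjusted p = 0.00966 in limma) and DUSP5, an ERK phosphatase (0.74, adjusted p = 0.0442 in limma). In the same fit none of the 10 genes was called, and their lowest adjusted p in limma was 0.173. That fit called 102 of all genes tested, 76 of them higher, beside 34 with all 6 libraries. No gene of the list was called in the other 14 alternatives. JUNB and MCL1, the other abundant genes of the list, had log2 fold changes of 0.34 and 0.35 with overlapping groups.

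The 29 genes of actin monomer and filament turnover were all tested and 0 were called in limma. Unadjusted p was under 0.05 in 3, TWF2, CFL1 and ARPC5L, all higher, beside 8.1% of all genes tested on that side. The groups did not overlap in 2 genes on the higher side (6.90%) and 0 on the lower. Over all genes tested these shares were 11.3% and 9.17%. The 2 genes were TWF2 (log2 fold change 0.28, adjusted p = 0.268 in limma) and ARPC5L (0.23, adjusted p = 0.345 in limma). Their median log2 fold change was -0.064, with 12 fitted higher and 17 fitted lower. The monomer-binding proteins were the most abundant, with 4834 ± 489 and 4589 ± 229 FPKM (SD, n = 3 each) for TMSB10, 1123 ± 116 and 1015 ± 61.7 FPKM (SD, n = 3 each) for PFN1, and 1034 ± 56.8 and 919.7 ± 118 FPKM (SD, n = 3 each) for TMSB4X. In each of these the difference was within the spread between libraries and the groups overlapped. CFL1, cofilin, which severs filaments, had 110.3, 129 and 91.6 FPKM in shNC and 164, 122 and 156 FPKM in shARHGEF2, with overlap in 1 library of each group (log2 fold change 0.41, 95% interval 0.07 to 0.76, adjusted p = 0.282 in limma). CFL1, TWF2, ARPC5L, DUSP5, EGR1, MRTFA, MRTFB, MYOCD, ACTC1, MYH9, CCN1, FHL2, GSN and NR4A1 stand outside the rule for named genes. They were chosen after their values were seen.

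**Figure D5:**
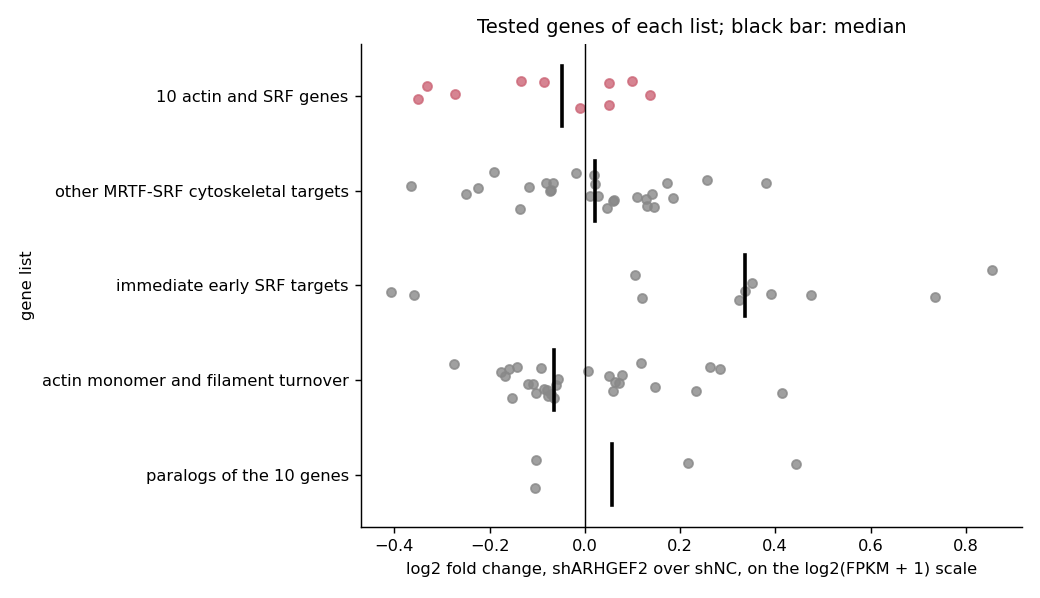
Log2 fold change (horizontal axis, log2(FPKM + 1) scale) of the tested genes in the 10 genes (red) and in 4 gene lists (grey); each point is a gene and black bars are medians. The medians of all lists lie between -0.064 and 0.056 except that of the immediate early genes, at 0.34. The lists were chosen with earlier results of these data known, and the medians were not tested against each other.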

How the data were processed

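RNA sequencing of 6 HepG2 libraries (3 shNC, 3 shARHGEF2) was re-analysed. Per the labels, poly(A) RNA libraries made with dUTP and molecular identifiers were processed with cutadapt 1.9, UMI-tools, HISAT2 2.0.4 and StringTie 1.3.4d on hg19, and edgeR and DESeq2 are named without a role. The annotation version is not given in the sources used here. The deposited table holds FPKM for 27605 genes, with no counts. The authors' 4 comparison columns (ratio of mean FPKM, its log2, p-value and adjusted p-value) were not used.

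Groups follow the sample titles. Groups were compared with limma 3.58.1 (statmod 1.5.0, R 4.3.3) on log2(FPKM + 1) with trended and robust variances, for genes whose mean reached 0.5 FPKM, adjusted over all of them by the Benjamini-Hochberg method. It was tested on simulated data. The other 15314 genes were not tested. Gene lists were written by hand. The genes of 1 list are not reported here as a group. The 10 genes and the lists were chosen with earlier results of these data known. Named are the 10 genes, ARHGEF2, RHOA, from each list the genes called and the 3 most abundant, and the 5 nearest profiles. Promoter windows are RefSeq on GRCh38.p14, and gene positions and GC content are from GENCODE 29 on GRCh38, on which 94.7% of the listed transcripts were found. Exact permutation tests used SciPy 1.17.1. Figures were drawn with matplotlib 3.10.9.

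Alternatives tried were the replicate block, a pseudocount of 0.1, 2 other filters, 3 other scalings, limma without trended and robust variances, and each library left out. Removal of a GC content trend (loess, span 0.3) was added after the data were seen. Depth is known only relative to the deepest library.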

Additional observations from a re-analysis of the deposited data

How the results depend on the processing

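None of the 10 genes was called in limma under any of the 15 alternatives, and their lowest adjusted p was 0.140, for ACTB with the GC content trend removed. SRF, ACTB, TAGLN and TPM1 were fitted lower, and TAGLN2 higher, in all 15. The sign of a log2 fold change near 0 turned for ACTG1 with quantile normalization (0.14), with every library scaled to the same sum (0.027), and without 1 library (from -0.099 to 0.064 over the 6 fits). With 1 library left out it also turned for TPM4 (range -0.0031 to 0.23), CNN2 (-0.022 to 0.11), CNN3 (-0.010 to 0.14) and CALD1 (-0.19 to 0.023). The cause was not tested.

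Over all genes tested, the 34 calls became 0 with the replicate block (1976 at an unadjusted p under 0.05), 1 with no filter, 54 with at least 1 FPKM in 3 or more libraries, 19 with quantile normalization, 7 with median-of-ratios scaling, 7 without trended and robust variances, and 63 with the GC content trend removed. With 1 library left out they ranged from 6 (without shARHGEF2 replicate 3) to 102 (without shNC replicate 3), and each of the 6 libraries moved the count by over 1.5 times. Higher calls were 24 of 34 (70.6%), but 12 of 19 with quantile normalization, 4 of 7 with median-of-ratios scaling, and from 33.3% (without shARHGEF2 replicate 1) to 74.5% (without shNC replicate 3) with 1 library left out. Of the gene lists, between 0 and 3 genes were called with 1 library left out. ARHGEF2 had a log2 fold change of -1.47 with the replicate block (adjusted p = 0.0716 in limma) and with no filter (-1.47, adjusted p = 0.0701 in limma), so it was not called in either. The deviations of libraries with the same number correlated at 0.18, 0.16 and -0.10. Their rank correlation with GC was 0.39 (shNC) and 0.61 (shARHGEF2) for number 1. It was -0.53 and -0.50 for number 2, and 0.24 and -0.19 for number 3. Whether the numbers pair the libraries was not tested.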
